A study of Mus musculus with 24 samples.

Results

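Adrenergic receptors are the cell surface proteins through which noradrenaline and adrenaline act. The 8 receptor genes described here are Adra1a, Adra1b and Adra1d (alpha-1), Adra2a, Adra2b and Adra2c (alpha-2), and Adrb1 and Adrb3 (beta). They were found by Ensembl identifier in tables of 55421 genes each, with names from GENCODE M21, and each of the 8 had 1 row. Each gene was followed across 24 libraries made from mouse carotid arteries, in 4 groups of 6.

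The libraries came from uninjured carotid arteries of wild type C57BL/6 female mice that had been ovariectomized. The labels give an age of 9 weeks. The group OVX received placebo, E2 received estradiol, and the groups titled E4 and TAM are taken here as estetrol and tamoxifen. All groups therefore share the loss of ovarian hormones. E4 is a natural estrogen that carries more hydroxyl groups than E2. The E2 and E4 pellets held different amounts, which the study chose for a like estrogenic effect by uterine weight, so that E4 and E2 are compared at amounts matched by effect and not by mass. The treatment field of the E4 libraries reads placebo, and these libraries were placed in their group by their titles. How tamoxifen was given is not stated in the sources used here, and the duration of treatment differs between the series' design text and the study's methods. Each library carries an animal number, in a first series of C2 to C20 or a second of C24 to C39, and the labels do not say what the series stand for.

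Libraries held 24647246 to 64221401 estimated counts, with a median of 45156107, and no 2 were identical. All 8 markers of smooth muscle cells and all 8 of endothelial cells were above 3 counts in every library. So were all 12 markers of sympathetic ganglion neurons, whose summed level was 2760 to 9927 CPM (counts scaled to a common library total) in 22 libraries but 50.8 CPM in the OVX library C5 and 273.8 CPM in the TAM library C35. The superior cervical ganglion lies beside the carotid artery in the neck. Against the median of the other OVX libraries, OVX C5 also held 197% of the white adipocyte, 183% of the brown adipocyte and 157% of the macrophage marker level. Against the other TAM libraries, TAM C35 held 363% of the skeletal muscle, 221% of the smooth muscle, 185% of the pericyte and 165% of the endothelial marker level. E4 C38 held 2977 CPM of thyroid and parathyroid markers, E4 C16 held 120.2 CPM, and the other libraries held 4.15 to 29.1 CPM. Many of the results below are also given without OVX C5 or TAM C35.

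In arteries, sympathetic nerves in the outer wall release noradrenaline. Alpha-1 receptors couple through Gq to phospholipase C and calcium release and contract smooth muscle, alpha-2 receptors couple through Gi to lower cyclic AMP and include the autoreceptors that restrain release from the nerve ending, and beta receptors couple through Gs to raise cyclic AMP. Adrb3 is best known from adipocytes, where it drives lipolysis, and fat surrounds the artery.

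Levels of different genes were compared as RPKM, which is CPM divided by the length in kb of the gene's joined exons. Adrb3 was the highest of the 8 in each group, at 33.4 ± 15.1 RPKM in OVX, 50.1 ± 8.38 in E2, 25.9 ± 7.36 in E4 and 27.1 ± 3.93 in TAM (SD, n = 6 each). Its lowest library in each group lay above the highest library of Adra2b, the next gene in the order. Adrb3 made up a median of 52.6% of the summed level of the 8 genes in OVX, 64.5% in E2, 39.8% in E4 and 45.1% in TAM. Adra2b came next in each group. Adra2a and Adra1d followed in that order in E2, E4 and TAM, while in OVX Adra1d (5.56 ± 1.78 RPKM, n = 6) stood before Adra2a (4.83 ± 2.60 RPKM, n = 6). That order in OVX rests on C5, and without it Adra2a (5.69 ± 1.70 RPKM, n = 5) came before Adra1d (5.27 ± 1.83 RPKM, n = 5) there too. The ranges of neighbours among these 3 genes overlapped except that each library of Adra2a was above each of Adra1d in E4, and in TAM without C35. Adra1b was the lowest in each group, between 0.633 ± 0.162 RPKM in E2 and 1.05 ± 0.346 RPKM in TAM (n = 6 each), and its range overlapped that of Adrb1, the gene above it, in each group but E2. The joined exons of Adra1a are those of 6 transcripts and measure 8.728 kb, against 1.899 kb for the 1 transcript of Adra1d, so that the order of these genes depends on the annotated length.

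**Figure D1:**
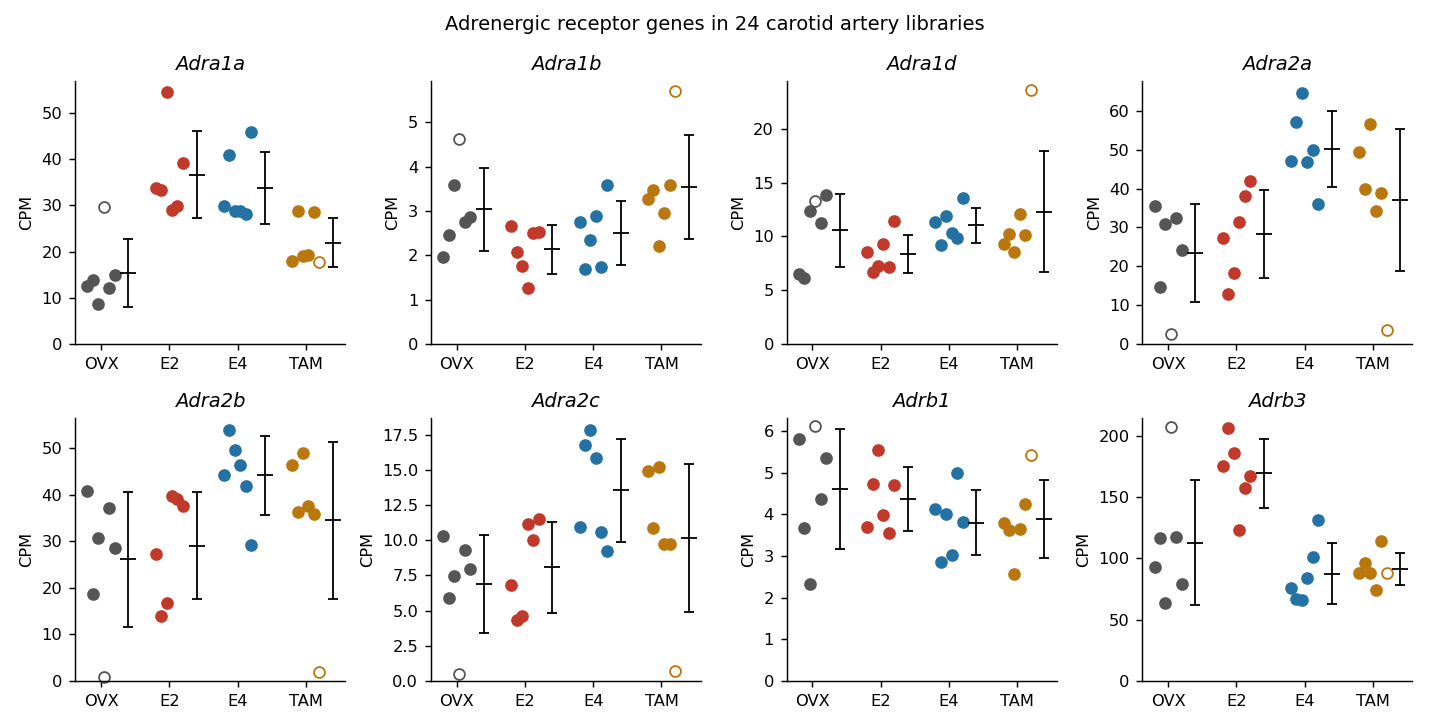
CPM of each receptor gene (vertical axis, linear and from 0) in the 6 libraries of OVX, E2, E4 and TAM (1 point per library), with the group mean and SD as a black bar. Open circles mark OVX C5 and TAM C35. For Adra1a, OVX C5 at 29.6 CPM stands above the other OVX libraries, and for the alpha-2 genes both open circles lie near 0.

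Adra1a, the alpha-1A receptor gene (ENSMUSG00000045875, GRCm38 chr14:66635251-66771168, plus strand), was higher in both estrogen groups than in OVX. Its level in OVX ran from 8.72 CPM through a median of 13.2 to 29.6 CPM. In E2 the lowest, median and highest libraries held 29.1, 33.6 and 54.5 CPM. The 6 E4 libraries ran from 28.1 through 29.3 to 45.9 CPM. TAM libraries ran from 17.7 through 19.2 to 28.9 CPM. OVX C5, at 29.6 CPM, was the only OVX library within the E2 and E4 ranges, and the other 5 OVX libraries, at 15.0 CPM or less, lay below each E2, E4 and TAM library. Without OVX C5 and TAM C35, 6.11% of all genes stood above OVX without overlap in E4, 3.71% in E2 and 3.92% in TAM.

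Counts were tested across all genes with edgeR's quasi-likelihood test, p-values were adjusted over all genes by the Benjamini-Hochberg method, and a gene was called at an adjusted p under 0.05 with a log2 fold change beyond 1 in either direction. With E4 against OVX, Adra1a rose 2.20-fold (log2 fold change 1.14, SE 0.24, adjusted p = 0.00486 by edgeR). With E2 against OVX it rose 2.39-fold (log2 fold change 1.26, SE 0.24, adjusted p = 0.00385 by edgeR). It was the 1 receptor gene of 8 called in each of these comparisons, in which 2.51% and 1.23% of all tested genes were called. Between E4 and E2 no difference in Adra1a was resolved (log2 fold change -0.12, 95% interval -0.58 to 0.34, adjusted p = 0.75 by edgeR). Both changes passed in each of 18 fits that left out 1 library, with log2 fold changes of 1.01 to 1.44 for E4 and 1.11 to 1.56 for E2. Without OVX C5 they were 1.44 and 1.56. Within the first number series the log2 fold changes of Adra1a were 1.04 for E4 (adjusted p = 0.113 by edgeR) and 1.32 for E2 (adjusted p = 0.209 by edgeR), and within the second they were 1.34 (adjusted p = 0.0388) and 1.25 (adjusted p = 0.0311). In bulk tissue, more RNA per cell and more cells of an expressing type cannot be told apart.

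The median of Adra1a under tamoxifen lay between that of OVX and those of the estrogens, but neither the difference from OVX nor that from E4 passed with all libraries. Against E4 the log2 fold change of Adra1a was -0.62 (SE 0.23, adjusted p = 0.368 by edgeR), and it passed in 0 of 24 fits that left out 1 library (-0.72 to -0.52). Against OVX its log2 fold change was 0.52 (SE 0.23, adjusted p = 0.202 by edgeR), and 2.21% of all genes passed the adjusted p in that comparison and 0.308% also the fold threshold. Without OVX C5 and TAM C35 it was 0.87 (adjusted p = 0.0278 by edgeR), short of the fold threshold, and the groups did not overlap. Leaving out OVX C5 alone gave 0.82 (adjusted p = 0.0352 by edgeR). With the white adipocyte marker level as a covariate, the Adra1a change of TAM against OVX was 1.07 (adjusted p = 0.00118 by edgeR), that of E4 was 1.59 (adjusted p = 1.119e-05) and that of E2 was 1.17 (adjusted p = 2.188e-05). With the brown adipocyte marker level in its place, a covariate added after the data were seen, these Adra1a changes were 1.08 for TAM (adjusted p = 0.0213 by edgeR), 1.86 for E4 (adjusted p = 9.529e-05) and 1.63 for E2 (adjusted p = 3.82e-06). Against E2, Adra1a in TAM was at a log2 fold change of -0.74 (SE 0.23, adjusted p = 0.0538 by edgeR), and each TAM library lay below each E2 library, as 3.13% of all genes did. It passed without OVX C5 (-0.74, adjusted p = 0.0119 by edgeR), which enters through the shared spread, and also without OVX C4, TAM C12 or TAM C33. The Adra1a difference of TAM from E2 was -0.10 (adjusted p = 0.77 by edgeR) with the white adipocyte covariate.

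Adra1d, the alpha-1D receptor gene of large artery smooth muscle (ENSMUSG00000027335, GRCm38 chr2:131545850-131562283, minus strand), passed in none of the 6 comparisons. Its lowest, median and highest libraries were 6.18, 11.8 and 13.8 CPM in OVX and 6.71, 7.87 and 11.4 CPM in E2. In E4 they were 9.17, 10.8 and 13.6 CPM, and in TAM 8.57, 10.2 and 23.6 CPM. The ranges overlapped in each pair of groups, and the highest value, TAM C35, was the library with the high smooth muscle markers, whose part in it was not tested. The log2 fold change of Adra1d was 0.06 for E4 against OVX (95% interval -0.31 to 0.44) and -0.33 for E2 against OVX (95% interval -0.71 to 0.04). For E4 against E2 it was 0.40 (adjusted p = 0.172 by edgeR), and 0.40 (adjusted p = 0.0463) in a fit of these 2 groups alone. For TAM, Adra1d was at 0.22 against OVX (adjusted p = 0.62 by edgeR), 0.55 against E2 (adjusted p = 0.161) and 0.16 against E4 (adjusted p = 0.866). Without TAM C35 these values of Adra1d were -0.06 (adjusted p = 0.853 by edgeR), 0.27 (adjusted p = 0.377) and -0.14 (adjusted p = 0.999). For 147 bp its exons are also those of the antisense gene Gm14285. Values that were not whole, which arise where a read is divided between features, occurred for Adra1d in 10 of 24 libraries, and Gm14285 was listed at 9.38% to 25.6% of the count of Adra1d. Adding the antisense count moved the E2 change of Adra1d to -0.36 (adjusted p = 0.34 by edgeR).

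Adra1b, the alpha-1B receptor gene (ENSMUSG00000050541, GRCm38 chr11:43774606-43901210, minus strand), was low throughout, at 43 to 246 counts a library. The medians were 2.81 CPM in OVX, 2.30 in E2, 2.54 in E4 and 3.37 in TAM, and the 24 libraries ran from 1.27 to 5.71 CPM. Groups overlapped in each pair. Its largest difference was between TAM and E2, at a log2 fold change of 0.72 (SE 0.24, adjusted p = 0.0695 by edgeR). It passed in 2 of 24 fits that left out 1 library, without OVX C5 (0.73, adjusted p = 0.0472 by edgeR) and without TAM C13 (0.83, adjusted p = 0.0437). Over the 24 fits it ran from 0.54 to 0.83, with an adjusted p up to 0.149 by edgeR. TAM C35 held 5.71 CPM of Adra1b, beside 2.22 to 3.58 CPM in the other TAM libraries. Without C35 the TAM mean was 3.10 CPM, against 2.14 CPM in E2. The TAM against E2 difference of Adra1b was 0.29 (adjusted p = 0.334 by edgeR) with the smooth muscle marker level as a covariate and 1.12 (adjusted p = 0.0136) with the white adipocyte level.

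The balance of the 3 alpha-1 genes within each library was described by the share of Adra1d in their summed RPKM. A rise of Adra1a lowers this share, so that its tests against OVX in large part restate the Adra1a change above. Adra1d enters too, at log2 fold changes of -0.33 in E2 against OVX, 0.40 in E4 against E2 and 0.55 in TAM against E2, none of which passed. Adra1a was at -0.12 in E4 against E2 and -0.74 in TAM against E2. The tests of the share reuse these gene levels and add no separate support for the changes above. Adra1d took 67.3% ± 7.81 of the alpha-1 level in OVX, 47.8% ± 7.32 in E2, 55.9% ± 4.62 in E4 and 63.0% ± 8.19 in TAM (SD, n = 6 each). The share in OVX ran from 58.6% to 75.9% and in E2 from 36% to 56.9%, without overlap. The difference of E2 from OVX was -19.4 percentage points (exact permutation test, two-sided p = 0.00216, adjusted p = 0.013 over 6 comparisons), and this p is the smallest that 6 against 6 can give. That of E4 from OVX was -11.3 points (exact permutation test, p = 0.0108, adjusted p = 0.0217). TAM was 15.2 points above E2 (exact permutation test, p = 0.00649, adjusted p = 0.0195). TAM and OVX differed by -4.24 points (exact permutation test, adjusted p = 0.364), E4 and E2 by 8.09 points (adjusted p = 0.0617) and TAM and E4 by 7.09 points (adjusted p = 0.109). Without TAM C35 the TAM share was -7.02 points from OVX (exact permutation test, adjusted p = 0.146), 4.30 points from E4 (adjusted p = 0.182) and 12.4 points from E2 (adjusted p = 0.026). Without OVX C5 the E4 share was -12.9 points and the E2 share -21.0 points from OVX (exact permutation test, adjusted p = 0.0173 each). The share of Adra1a had medians of 22% in OVX, 42.8% in E2, 35.3% in E4 and 27.8% in TAM. The level of the share depends on the annotated length. As a share of counts, without division by exon length, Adra1d took 37.2% in OVX, 18.2% in E2, 23.7% in E4 and 32.1% in TAM, with differences of -19.0 points for E2 and -13.5 for E4 against OVX (exact permutation test, adjusted p = 0.00649 and 0.00866).

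**Figure D2:**
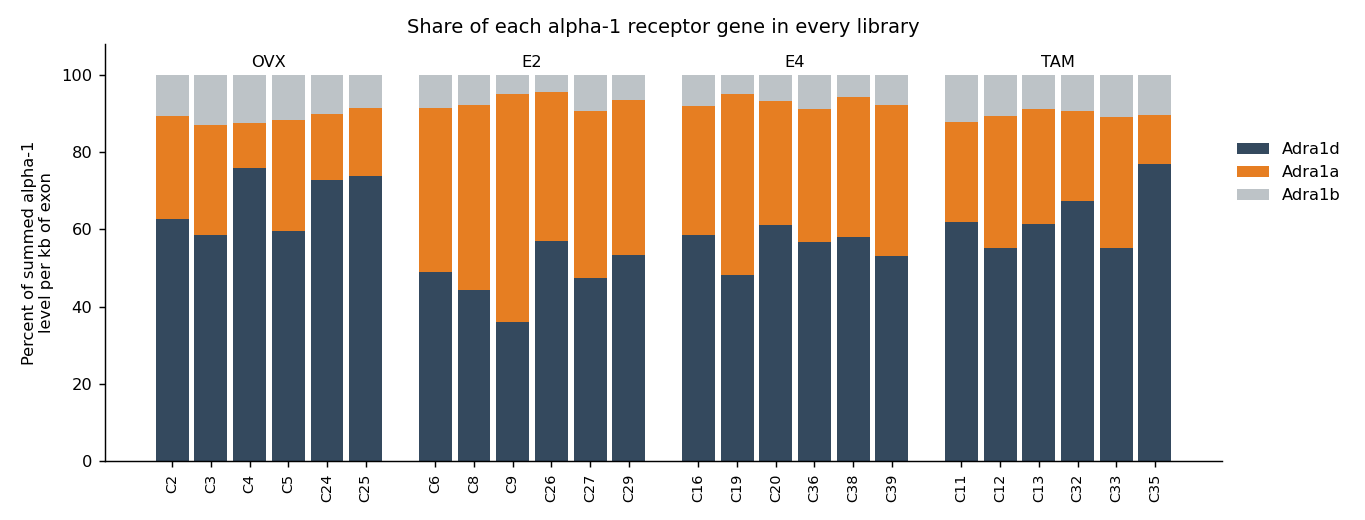
Percent of the summed alpha-1 level per kb of exon (vertical axis, from 0) taken by Adra1d, Adra1a and Adra1b in each of the 24 libraries, named by animal number and grouped as OVX, E2, E4 and TAM. The Adra1d part runs from 58.6% to 75.9% in OVX and from 36% to 56.9% in E2.

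The alpha-2 receptor genes Adra2a (ENSMUSG00000033717, GRCm38 chr19:54044151-54048982, plus strand), Adra2b (ENSMUSG00000058620, chr2:127363208-127367221, plus strand) and Adra2c (ENSMUSG00000045318, chr5:35278319-35281763, plus strand) varied together over the libraries. Sequence near the RefSeq start sites (GRCm38.p6, plus strand) is shown for these 3 because they move together. RefSeq promoter windows of 300 bases were searched on both strands for the motifs GGTCANNNTGACC (the estrogen response element), GGTCA (a part of it), TATAAA and TGACG (part of the cyclic AMP response element), which occur in 0.07%, 40.5%, 13.6% and 20.8% of 32851 RefSeq promoters. Capitals mark the matches, and the Adra2b run has none.
Adra2a, chr19:54045218-54045247: tcatcctggggcTATAAAaccagtccagcg
Adra2a, chr19:54045178-54045207: ccacgtgggggcTGACGccggctgctcggc
Adra2b, chr2:127362929-127363207: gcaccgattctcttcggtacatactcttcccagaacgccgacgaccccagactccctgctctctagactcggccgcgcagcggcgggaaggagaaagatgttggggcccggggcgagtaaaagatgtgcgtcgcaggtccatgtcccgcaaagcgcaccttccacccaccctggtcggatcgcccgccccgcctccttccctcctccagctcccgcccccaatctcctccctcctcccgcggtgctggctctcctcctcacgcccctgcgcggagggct
Adra2c, chr5:35278504-35278533: ctgcatggggcaGGTCAgttttgagtttgt
No motif of the 4 was shared by the windows of the 3 genes, and the full estrogen response element was in none of them. Both matches of Adra2a lie within its longer GENCODE transcript, and that of Adra2c lies within the GENCODE gene.

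Adra2a, the alpha-2A receptor gene, which encodes an autoreceptor of sympathetic nerves, ran from 2.57 CPM through a median of 27.5 to 35.4 CPM in OVX. It ran from 12.9 through 29.3 to 41.9 CPM in E2, from 36 through 48.5 to 64.5 CPM in E4 and from 3.74 through 39.3 to 56.5 CPM in TAM. Each E4 library lay above each OVX library, as 5.38% of all genes did, while the other pairs of groups overlapped. With E4 against OVX the log2 fold change of Adra2a was 1.10 (SE 0.40, adjusted p = 0.0584 by edgeR), and 21.7% of all genes passed the adjusted p there. Without OVX C5 it was 0.87 (adjusted p = 0.0292 by edgeR), and with DESeq2 it was 1.12 (adjusted p = 0.0228). Against E2 the E4 value was 0.83 (SE 0.40, adjusted p = 0.172 by edgeR), and 0.83 (adjusted p = 0.0271) without OVX C5, which enters through the shared spread.

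Adra2b, the alpha-2B receptor gene, ran from 0.747 through 29.6 to 40.8 CPM in OVX, from 14.0 through 32.4 to 39.6 CPM in E2, from 29.2 through 45.2 to 53.8 CPM in E4 and from 1.88 through 36.9 to 49.0 CPM in TAM. Adra2c, the alpha-2C receptor gene, which is also presynaptic in sympathetic nerves, ran from 0.483 through 7.68 to 10.3 CPM in OVX, from 4.32 through 8.41 to 11.5 CPM in E2, from 9.25 through 13.4 to 17.8 CPM in E4 and from 0.696 through 10.3 to 15.2 CPM in TAM. With all libraries in the fit neither gene passed in any of the 6 comparisons, and for both the groups overlapped in each pair. The largest log2 fold changes were those of E4 against OVX, at 0.76 for Adra2b (SE 0.49, adjusted p = 0.269 by edgeR) and 0.97 for Adra2c (SE 0.42, adjusted p = 0.103 by edgeR). Without OVX C5 these were 0.50 for Adra2b (adjusted p = 0.165 by edgeR) and 0.73 for Adra2c (adjusted p = 0.0522). With E4 against E2, Adra2c was at 0.75 with all libraries (adjusted p = 0.234 by edgeR) and at 0.75 without OVX C5 (adjusted p = 0.0354), a pass that comes through the shared spread. Without both OVX C5 and TAM C35, TAM against OVX stood at 0.67 for Adra2a (adjusted p = 0.142 by edgeR), 0.40 for Adra2b (adjusted p = 0.342) and 0.57 for Adra2c (adjusted p = 0.196). Over the 24 libraries Spearman's rho was 0.913 for Adra2a with Adra2b, 0.922 for Adra2a with Adra2c and 0.947 for Adra2b with Adra2c, all within the same libraries and scaling.

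The alpha-2 genes moved with the markers of sympathetic ganglion neurons. In OVX C5 the levels of Adra2a, Adra2b and Adra2c were 8.35%, 2.44% and 6.1% of the median of the other OVX libraries, and the summed ganglion markers were at 0.883%. In TAM C35 they were 9.38%, 4.99% and 6.39% of the other TAM libraries, and the ganglion markers were at 3.78%. These 2 libraries still held 117 and 161 counts of Adra2a, 34 and 81 of Adra2b, and 22 and 30 of Adra2c.

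Set against 1000 CPM of summed ganglion markers, Adra2b had medians of 5.38 CPM in OVX, 5.27 in E2, 5.07 in E4 and 5.20 in TAM without these 2 libraries. The SD of log2 Adra2b over the 22 libraries was 0.513 for the CPM and 0.074 for this ratio. Adra2a had ratio medians of 4.71, 5.38, 5.76 and 5.82 CPM in OVX, E2, E4 and TAM, with an SD of 0.608 for log2 CPM and 0.17 for the log2 ratio. Adra2c had 1.37, 1.49, 1.65 and 1.59 CPM, with SDs of 0.552 and 0.183. In OVX C5 the ratios were 50.6 for Adra2a, 14.7 for Adra2b and 9.52 for Adra2c, and in TAM C35 they were 13.6, 6.86 and 2.54, each above the 22 other libraries.

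None of the 12 ganglion markers passed in any comparison by edgeR, and their median log2 fold change for E4 against OVX was 0.83. With the ganglion marker level as a covariate, the E4 change of Adra2a against OVX was 0.49 (adjusted p = 0.036 by edgeR) and against E2 it was 0.45 (adjusted p = 0.035). Other settings moved the alpha-2 values both ways. The E4 change of Adra2a against OVX was 0.34 (adjusted p = 0.711 by edgeR) with the brown adipocyte covariate, 0.63 (adjusted p = 0.103) with the white adipocyte covariate and 0.65 (adjusted p = 0.101) within the second number series. Against E2, with the white adipocyte covariate, it was -0.22 for Adra2a (adjusted p = 0.723 by edgeR), -0.56 for Adra2b (adjusted p = 0.498) and -0.25 for Adra2c (adjusted p = 0.746). With that covariate the E2 change of Adra2a against OVX was 0.85 (adjusted p = 0.044 by edgeR). Within the first number series the E4 change of Adra2a was 1.42 against OVX (adjusted p = 0.184 by edgeR), and against E2 it was 1.53 for Adra2a (adjusted p = 0.184), 1.35 for Adra2b (adjusted p = 0.325) and 1.53 for Adra2c (adjusted p = 0.195). The ganglion covariate gave -0.03 for Adra2b (adjusted p = 0.851) and 0.29 for Adra2c (adjusted p = 0.187) in E4 against OVX.

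**Figure D3:**
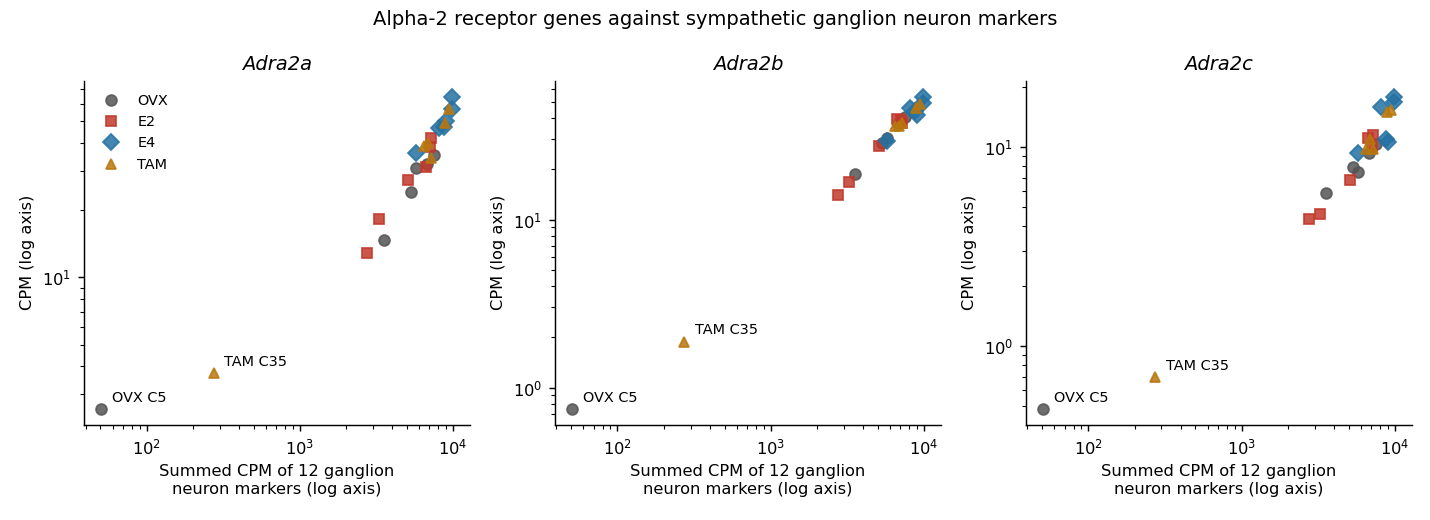
CPM of Adra2a, Adra2b and Adra2c (vertical axes, log scale) against the summed CPM of 12 sympathetic ganglion neuron markers (horizontal axis, log scale), 1 point per library, with marker shape and colour for OVX, E2, E4 and TAM. OVX C5 (50.8 CPM of markers) and TAM C35 (273.8 CPM) lie at the lower left, and the other 22 libraries lie along a band from 2760 to 9927 CPM.

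Adrb1, the beta-1 receptor gene (ENSMUSG00000035283, GRCm38 chr19:56722199-56733113, plus strand), passed in none of the 6 comparisons. The medians were 4.86 CPM in OVX, 4.35 in E2, 3.92 in E4 and 3.71 in TAM, and the 24 libraries ran from 2.34 to 6.13 CPM with overlap in each pair of groups. The change of E4 against OVX was -0.28 on the log2 scale (95% interval -0.68 to 0.11), that of E2 -0.08 (95% interval -0.47 to 0.31) and that of TAM -0.25 (95% interval -0.64 to 0.15).

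Adrb3, the beta-3 receptor gene (ENSMUSG00000031489, GRCm38 chr8:27225776-27250616, minus strand), was highest in E2. The 6 E2 libraries ran from 123 CPM through a median of 171 to 206 CPM. In OVX the range was 63.2 through 105 to 207 CPM, in E4 66.3 through 80.0 to 131 CPM and in TAM 74.2 through 87.9 to 114 CPM. The highest OVX value was that of C5, and the other OVX libraries reached 118 CPM. Each TAM library lay below each E2 library for Adrb3, as for 3.13% of all genes, and 1 E4 library, at 131 CPM, overlapped the lowest of E2.

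With TAM against E2, Adrb3 fell by 0.89 on the log2 scale (SE 0.22, adjusted p = 0.0149 by edgeR), where 6.44% of all genes passed the adjusted p and 1.65% also the fold threshold. With E4 against E2 it fell by 0.95 (SE 0.24, adjusted p = 0.0186 by edgeR), where 10.9% passed the adjusted p and 2.26% also the fold threshold. Both changes were within the fold threshold, so that Adrb3 was not called. The comparisons share the E2 libraries. Against OVX, E2 was at 0.58 (SE 0.24, adjusted p = 0.213 by edgeR), E4 at -0.37 (adjusted p = 0.264) and TAM at -0.30 (adjusted p = 0.444). Without OVX C5 the E2 value for Adrb3 was 0.85 (adjusted p = 0.0105 by edgeR) and the groups did not overlap, where 3.71% of all genes were higher without overlap. The values of E4 and TAM against OVX were then -0.10 (adjusted p = 0.729 by edgeR) and -0.03 (adjusted p = 0.954).

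Without E2 C8 the Adrb3 change of E4 against E2 was -0.89 (adjusted p = 0.0502 by edgeR). It was -1.44 (adjusted p = 0.0482) within the first number series and -0.48 (adjusted p = 0.402) within the second. For TAM against E2 the values of Adrb3 within the series were -1.07 (adjusted p = 0.0691 by edgeR) and -0.68 (adjusted p = 0.25).

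The summed level of the 8 white adipocyte markers was 4380 to 6935 CPM in E2, 3802 to 5433 CPM in E4, 3166 to 4509 CPM in TAM, and 3364 to 7624 CPM in OVX with C5 the highest. With this marker level as a covariate, the change of Adrb3 was -0.44 for E4 against E2 (adjusted p = 0.176 by edgeR), -0.27 for TAM against E2 (adjusted p = 0.337) and 0.49 for E2 against OVX (adjusted p = 0.0427). With E4 against E2, 0 of 8 rose and 1 fell (median log2 fold change -0.16), which was Lep, the leptin gene (-1.87, adjusted p = 0.000186 by edgeR), while Adipoq was at -0.02 (adjusted p = 0.936). With TAM against E2, 0 of 8 rose and 2 fell, Lep and Cfd (median -0.15). With E2 against OVX, 1 rose, Cfd (1.26, adjusted p = 0.00073 by edgeR), and 1 fell, Retn (-0.90, adjusted p = 0.0204), with a median of -0.04. With the brown adipocyte marker level as a covariate, the E4 against E2 change of Adrb3 was -0.69 (adjusted p = 0.0605 by edgeR) and that of TAM was -0.71 (adjusted p = 0.0243). Exons of Adrb3 overlap the antisense gene Gm45470 for 839 bp, Adrb3 values were not whole in 11 of 24 libraries, and Gm45470 was listed at 13.7% to 26.2% of the count of Adrb3. Adding its count gave -0.90 for E4 (adjusted p = 0.0193) and -0.87 for TAM (adjusted p = 0.0122) against E2.

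Macrophage markers (Adgre1, Csf1r, Cd68, Mrc1 and C1qa) were also highest in E2. Their summed level was 378.7 to 502.3 CPM in E2, above each library of OVX (206.9 to 362.6 CPM), E4 (161 to 296 CPM) and TAM (218 to 247.3 CPM). All 5 fell with E4 against E2 (median log2 fold change -1.07) and with TAM against E2 (median -0.98), and 4 of 5 rose with E2 against OVX (median 0.85). Their part in the Adrb3 differences was not tested.

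**Figure D4:**
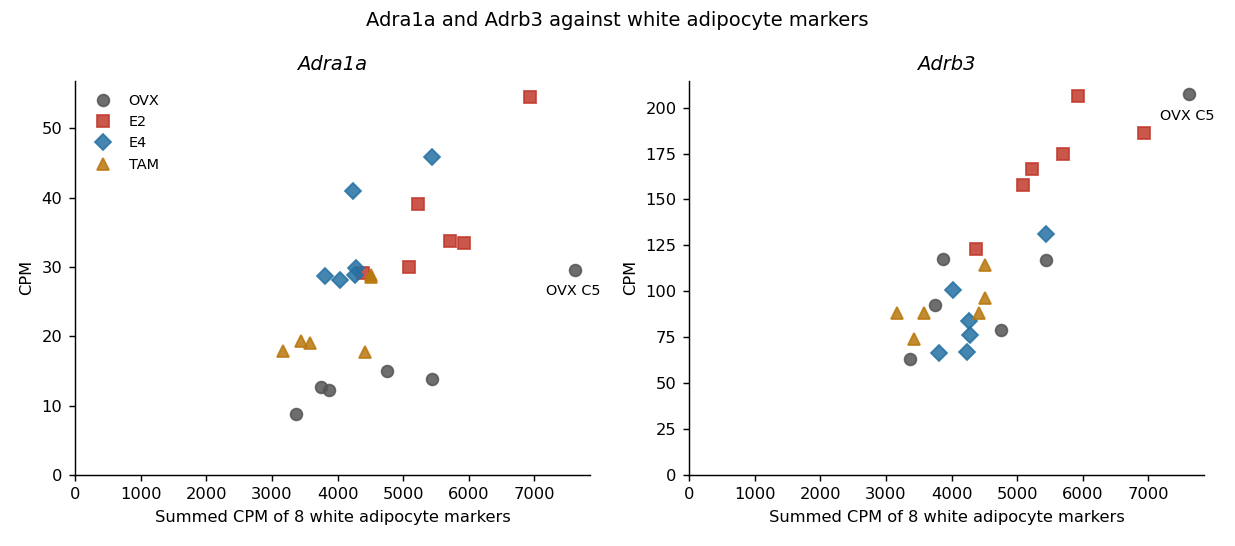
CPM of Adra1a (left) and Adrb3 (right) against the summed CPM of 8 white adipocyte markers, 1 point per library and both axes linear from 0, with marker shape and colour for OVX, E2, E4 and TAM. OVX C5, at 7624 CPM of markers, is the rightmost point in both panels, and the 6 E2 libraries lie from 4380 to 6935 CPM.

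Over the 6 comparisons, Adra1a was called with E4 and with E2 against OVX, and at the adjusted p alone Adrb3 also passed with E4 and with TAM against E2. No receptor gene passed with TAM against OVX or with TAM against E4, where 0.340% of all genes passed the adjusted p and 0.196% also the fold threshold. The smallest unadjusted p of a receptor gene by edgeR was 0.0348 in TAM against OVX and 0.0122 in TAM against E4, both for Adra1a. Adra1b was at an unadjusted p of 0.0482 by edgeR in TAM against E4. The share of all genes at such unadjusted values is not given here, so they are not read as a result. DESeq2 likewise called no receptor gene in these last comparisons. The median log2 fold change of the 8 genes was 0.41 for E4 against OVX, 0.19 for E2 against OVX, 0.31 for E4 against E2, 0.31 for TAM against OVX, 0.29 for TAM against E2 and -0.16 for TAM against E4, where that of all tested genes lay between -0.01 and 0.01. These medians do not describe a shared change. With E4 against OVX the 8 values ran from -0.37 for Adrb3 to 1.14 for Adra1a, and the 3 alpha-2 genes vary together.

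**Figure D5:**
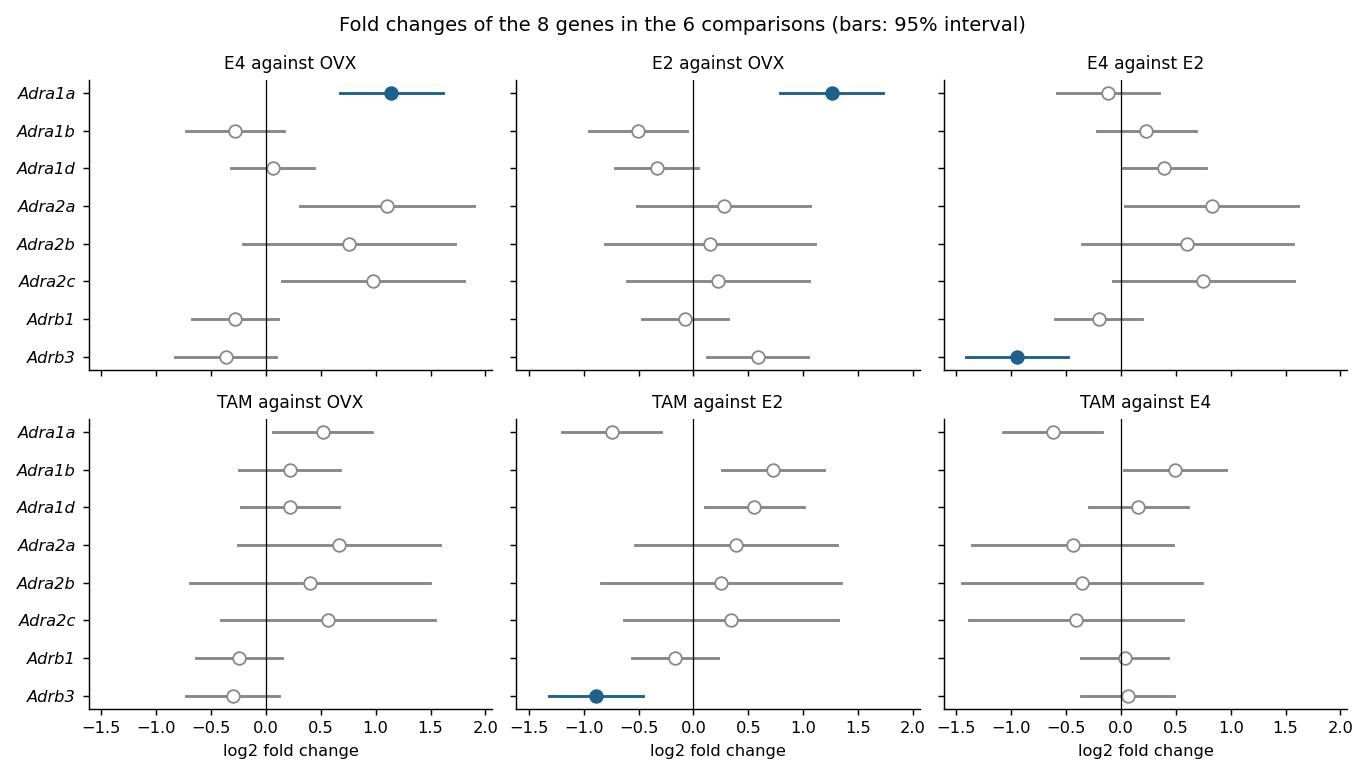
Log2 fold change (horizontal axis) of each of the 8 genes in the 6 comparisons, with 95% intervals as lines. Filled blue points passed an adjusted p of 0.05 by edgeR, which are Adra1a in E4 and E2 against OVX (1.14 and 1.26) and Adrb3 in E4 and TAM against E2 (-0.95 and -0.89), and the alpha-2 genes have the widest intervals.

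The rest of the adrenergic pathway was followed through 69 genes in 9 lists. With E4 against OVX, 8 of 68 tested genes rose and 8 fell, or 16 in all, beside 21.7% of all genes that passed. Downstream of alpha-1 receptors, Plcb2, a phospholipase C of blood cells, fell by 1.08 on the log2 scale (SE 0.26, adjusted p = 0.00932 by edgeR) and Prkcd, a protein kinase C, fell by 0.52 (adjusted p = 0.00403), while Plcb3 rose (0.36, adjusted p = 0.0215). Of the Gi subunits that alpha-2 receptors use, Gnai1 rose by 0.37 (adjusted p = 0.0389) and Gnai2 by 0.24 (adjusted p = 0.0485). Of the enzymes that make or respond to cyclic AMP, Adcy9 (0.47, adjusted p = 0.0085) and Prkaca (0.41, adjusted p = 0.033) rose, and Adcy7 (-0.60, adjusted p = 0.0108) fell. Pde4a, a phosphodiesterase that breaks down cyclic AMP, also fell (-0.58, adjusted p = 0.00245). Among the genes that end receptor signalling, Grk2 (0.22, adjusted p = 0.0134), Arrb1 (0.25, adjusted p = 0.044) and Rgs3 (0.44, adjusted p = 0.00344) rose, and Arrb2 (-0.24, adjusted p = 0.0327), Rgs1 (-1.08, adjusted p = 0.0381) and Rgs5 (-0.40, adjusted p = 0.00751) fell. Slc22a3, which takes up catecholamines outside neurons, fell by 0.52 (adjusted p = 0.0444). Rgs1 and Plcb2 are genes of blood cells, and all 5 B cell markers (median log2 fold change -2.12) and 1 of 5 macrophage markers fell in the same comparison. So did 5 of 7 fibroblast markers (median -0.58), 5 of 6 brown adipocyte markers (median -0.89) and 1 of 5 pericyte markers, Kcnj8 (-0.64, adjusted p = 0.0128 by edgeR). For macrophages, 0 of 5 markers passed without OVX C5, OVX C24 or E4 C19, C20, C36 or C38. Of 5 T cell markers, 0 passed with all libraries (median log2 fold change -1.70), and all 5 fell without E2 C9, which enters through the shared spread. The part of these cell types in the pathway values was not tested. The pathway counts depended on single libraries, with 11 genes rising and 10 falling without OVX C2, and 4 and 5 without OVX C3. They were 5 and 5 without E4 C19, 3 and 5 without E4 C20, 5 and 6 without E4 C36, and 7 and 5 without E4 C38. The share of all genes that passed in each of these fits is not given, here or in the comparisons below. The counts therefore say nothing particular to the pathway.

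With E2 against OVX, 2 of 68 pathway genes passed beside 3.88% of all genes, and both fell. These were Slc22a3 (log2 fold change -0.88, SE 0.18, adjusted p = 0.00629 by edgeR) and Rgs5, a regulator of G protein signalling of pericytes and smooth muscle (-0.43, SE 0.09, adjusted p = 0.00895). Mean levels of Slc22a3 were 17.0 CPM in OVX and 9.24 CPM in E2.

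With E4 against E2, 4 of 68 rose and 5 fell, beside 10.9% of all genes. Adcy3 (0.51, adjusted p = 0.0059 by edgeR), Adcy9 (0.43, adjusted p = 0.0205), Itpr3, a calcium release channel (0.51, adjusted p = 0.0293), and Pde4b (0.40, adjusted p = 0.034) rose. Arrb2 (-0.49, adjusted p = 0.000836), Prkcd (-0.49, adjusted p = 0.00841), Plcb2 (-1.09, adjusted p = 0.0151), Adcy7 (-0.54, adjusted p = 0.0274) and Rgs1 (-1.29, adjusted p = 0.0292) fell. In the same comparison all 5 macrophage markers (median log2 fold change -1.07) and 4 of 5 T cell markers (median -3.22) fell, and the T cell markers summed to 1.88 to 4.89 CPM in E4. In E2 the T cell level was 243.3 CPM in C9 and 2.66 to 18.1 CPM in the other 5 libraries. Without E2 C9, 0 of 5 T cell markers passed (median -0.98), as was also so without E4 C19, C20, C36 or C38 (medians -3.20 to -3.00), while all 5 macrophage markers fell (median -1.08). Of the pathway genes, Arrb2 (-0.53, adjusted p = 0.00101 by edgeR), Prkcd, Plcb2 and Adcy7 still fell without E2 C9, while Rgs1 was at -1.10 (adjusted p = 0.0749), Itpr3 at 0.52 (adjusted p = 0.0546) and Pde4b at 0.38 (adjusted p = 0.0778). With all libraries, 4 of 7 fibroblast markers (median log2 fold change -0.53) and 1 of 5 pericyte markers, Kcnj8 (-0.71, adjusted p = 0.014 by edgeR), also fell with E4 against E2. In these lists 0 rose. The part of these cell types was not tested. The pathway counts were 20 rising and 5 falling without OVX C5, which enters through the shared spread, and 11 and 5 without E2 C29. They were 2 and 3 without E2 C6, 1 and 4 without E2 C8, and 2 and 4 without E2 C9. Without E4 C19, C20 or C38 they were 3 and 3. No share of all genes in the same fits is set beside these counts.

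With TAM against OVX, 1 of 69 passed beside 2.21% of all genes, the cyclase gene Adcy9 (0.52, SE 0.11, adjusted p = 0.0185 by edgeR). With TAM against E2, 6 rose and 1 fell, beside 6.44% of all genes. Adcy3 rose by 0.62 (adjusted p = 0.000411 by edgeR), Adcy9 by 0.49 (adjusted p = 0.00741), Slc22a3 by 0.67 (adjusted p = 0.0265), the Gq family subunit Gna11 by 0.23 (adjusted p = 0.045) and Itpr3 by 0.48 (adjusted p = 0.0499), and Arrb2 fell by 0.40 (adjusted p = 0.00134). All 5 macrophage markers fell in that comparison too (median log2 fold change -0.98), and their part in the Arrb2 value was not tested. Pnmt, the enzyme that turns noradrenaline into adrenaline, rose by 2.12 (adjusted p = 0.0195) from a mean of 0.0867 CPM to 0.384 CPM. With TAM against E4, 0 of 69 passed by edgeR. With single libraries left out, TAM against OVX gave 0 without OVX C3, 2 without OVX C5, E2 C29 or TAM C35, and 3 without OVX C25, and TAM against E2 gave 3 rising and 1 falling without E2 C6, C8, C9 or C26.

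The genes by which neurons make, store and take up noradrenaline, Th, Dbh, Slc18a2 and Slc6a2, are also on the ganglion marker list, and none of them passed. With E4 against OVX, Dbh, which makes noradrenaline, was at a log2 fold change of 1.22 (SE 0.71, adjusted p = 0.221 by edgeR) and Th, the rate-limiting enzyme, at 0.95 (SE 0.62, adjusted p = 0.276).

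For each receptor gene the 2 tested genes most like it in log2 CPM over the 24 libraries were taken by Spearman's rho, as a description over libraries that share treatment and tissue makeup. Adra1a was most like Car3, a carbonic anhydrase of fat and muscle (rho 0.926), and Mettl7a1 (0.904). Adra1b was most like Ror1 (0.871) and Entpd2 (0.853). Adra1d was most like Smad6 (0.876) and Srf, the serum response factor (0.828). For Adra2a these were Atp6v0a1, a subunit of the proton pump of vesicles (0.995), and Dbh (0.994). Adra2b was most like Mllt11 (0.989) and Nme7 (0.988), and Adra2c most like Rasl10b (0.97) and Lgi3 (0.968). Adrb1 had the weakest likeness, to Sycp3 (0.797) and Zfp91 (0.786). Adrb3 was most like Ndufaf1 (0.892) and Ifi204 (0.856).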

How the data were processed

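RNA of 24 carotid artery libraries was sequenced by the authors from a stranded mRNA kit. The submitters' processing notes name bcl2fastq 2.17, Trim Galore, Bowtie2 and featureCounts and the builds mm10 and GRCm38. For each library the authors deposited a table of estimated counts that had not been normalized, in which 8.87% to 9.8% of the values carry decimals. The strand setting of the counting is not given in the sources used here. Counts were rounded to whole numbers.

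Counts were tested in R 4.3.3 with edgeR 4.0.16 (quasi-likelihood test, TMM scaling, filterByExpr, Benjamini-Hochberg adjustment over all tested genes). OVX, E2 and E4 entered a single fit (24646 genes). TAM was compared in a fit of all 24 libraries (25033 genes). All 8 receptor genes passed the filter in both. The threshold of an adjusted p under 0.05 with a log2 fold change beyond 1 follows the study's methods. SEs were derived from the F statistic, and CPM used TMM library sizes. Replicates are separate animal numbers. Of the shares, differences in mean were tested by exact permutation in Python 3.11.15 with scipy 1.17.1. The edgeR test was checked on simulated counts.

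The receptor genes, pathway lists and marker lists were chosen with earlier results of these data known. Named genes are the receptors, at most 4 genes with an adjusted p under 0.05 per pathway list and comparison (those that changed most), and the 2 genes most like each receptor. Alternatives covered DESeq2 1.42.0, scaling, filters, the libraries in the fit, number series, marker lists as covariates and each library left out. The brown adipocyte covariate, OVX C5 left out alone in the TAM comparisons, the added antisense counts, the order of levels without OVX C5 or TAM C35, and the blood cell and pathway lists with each library left out were chosen after seeing the data. Promoter sequences are from RefSeq (GRCm38.p6), which held a window for Adra1b, Adra2a, Adra2b, Adra2c and Adrb1, 5 of 8 genes.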

Additional observations from a re-analysis of the deposited data

Results flagged for a closer look

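In 36 sets of 6 libraries (each receptor gene in each group, and the alpha-1 shares), 3 held a library whose gap to the nearest other exceeded Dixon's limit, where 1.8 are expected by chance. Adra1a in OVX C5 was 29.6 CPM beside 8.72 to 14.9 CPM in the other 5 OVX libraries, in the library with the highest white adipocyte and lowest ganglion markers. Adra1d in TAM C35 was 23.6 CPM beside 8.57 to 12.1 CPM, in the library with the highest smooth muscle markers. Adra2b in TAM C35 was 1.88 CPM beside 35.8 to 49.0 CPM, in the TAM library with the lowest ganglion markers. What set these libraries apart was not tested.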

How the results depend on the processing

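No paired analysis was possible because the groups share no animal numbers. With 6 libraries a group, the alpha-2 genes have the widest intervals. The number of receptor genes called with E4 against OVX was 1, and was 2 (Adra1a and Adra2a) with DESeq2 and with the smooth muscle covariate, 0 within the first number series, and 1 to 2 with each library left out (2 without OVX C2). With E2 against OVX it was 1, and 0 within the first series. With E4 against E2 it was 0, and 1 (Adrb3) within the first series, with the smooth muscle covariate and with no fold threshold, and 0 to 1 with each library left out (1 without E2 C26 or E4 C39). With TAM against OVX it was 0, and 1 (Adra1a) with the white or the brown adipocyte covariate. With TAM against E2 it was 0, and 1 with the white adipocyte covariate (Adra1b) or no fold threshold (Adrb3). The share of all genes called in each of these settings is not given here, so the counts are not read as particular to the receptors. The cause was not tested.

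For the Adra1d share, the first series gave -8.28 points for E4 against OVX (exact adjusted p = 0.343), -21.1 for E2 against OVX (0.3) and 16.4 for TAM against E2 (0.3). The second series gave -17.4, -20.8 and 14.0 points (exact adjusted p = 0.4 each). These designs are too small to pass: the smallest exact p is 0.0571 with 4 against 3 and 0.1 with 3 against 3. Of Adra1a and Adra1d alone, the share differed by 8.78 points in E4 against E2 (exact adjusted p = 0.0468) and 10.1 in TAM against E4 (exact adjusted p = 0.0422). With each library left out, the E4 against E2 share differed by 5.72 to 9.9 points, and it passed without E2 C26 (9.9 points, exact adjusted p = 0.0325) and without E4 C19 (9.65 points, exact adjusted p = 0.0325). In tests of whether an effect differed between the number series, 0 of all tested genes passed an adjusted p by edgeR in any comparison, so that these tests say nothing about stability. For Adrb3 in E4 against E2 the effect was 0.94 higher on the log2 scale in the second series (unadjusted p = 0.0501 by edgeR), and the 1 receptor gene under 0.05 unadjusted was Adra2c in TAM against E2.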
